A study of Mus with 17 samples.

Results

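Whole-liver RNA of 17 male C57BL6/JBomTac mice was sequenced, and 8 of the 17 livers came from mice fed a western diet. The 8 western diet livers were divided by their mRNA level of Dbp, a circadian transcription factor, into 3 livers with low Dbp and 5 with high Dbp. The livers of each group were chosen by this measured level alone: low below 50 CPM and high at 50 CPM or more, where CPM is a gene's count scaled to the same column total in every liver. The low livers held 32.6, 29.1 and 10.7 CPM of Dbp, and the high livers 66.2, 69.5, 91.6, 96.2 and 69.0 CPM, so that the nearest values on either side of the threshold were 32.6 and 66.2 CPM. The division is by a measured level and not by a treatment: the labels give all 8 mice the same regimen, 52 weeks of western diet with 42 g/L of fructose in the drinking water, used per the labels to produce advanced steatohepatitis. The 9 mice of matched age on chow drank plain water and were not divided. The diets follow the treatment label of each liver, because the source label of all 17 livers names the western diet. Mice of both diets were kept in 12 h of light and 12 h of dark and were fasted overnight, and the hour at which each liver was taken is not given in the labels. The question was which genes outside the clock were associated with the Dbp level among the western diet livers.

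Dbp encodes a PAR-domain basic leucine zipper factor and lies on chromosome 7 from 45705100 to 45710203 (GRCm38.p6, the assembly also called mm10). In the textbook clock, BMAL1 (gene Arntl) pairs with CLOCK or NPAS2 and drives genes with E-boxes, among them Per, Cry, Nr1d1, Nr1d2, Ciart and Dbp. PER and CRY proteins restrain that drive, and the nuclear receptors REV-ERB (Nr1d1, Nr1d2) and ROR (Rora) act against each other on Arntl and Npas2. The products of Dbp, Tef and Hlf activate D-box sites that the product of Nfil3 represses. Liver shows large daily rhythms of clock mRNAs and of many metabolic mRNAs.

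Library totals were 5207055.5 to 5810873 counts in the low Dbp livers and 3604212 to 8818385.5 counts in the high Dbp livers, and 3 counts corresponded to 0.340 to 0.832 CPM. The high Dbp group held both the shallowest library, replicate 1, and the 4 deepest of the western diet. The labels give no replicate numbers, so the livers of each diet are numbered here in the order in which they are listed. The low Dbp livers are replicates 2, 3 and 4, the high Dbp livers replicates 1, 5, 6, 7 and 8, and values are given below in that order, as CPM on library sizes scaled by TMM (trimmed mean of M values). Albumin (Alb), a hepatocyte marker, was at 3682, 4176 and 3189 CPM in the low and 5133, 2685, 3065, 2921 and 3637 CPM in the high livers. Replicate 5 carried transcripts of the exocrine pancreas. The summed level of 17 pancreas markers, of which 15 were tested, was 6103 CPM there. It was 191 to 291 CPM in the other high livers and 245 to 400.2 CPM in the low livers.

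The other PAR-domain factors separated with Dbp. Tef was at 107, 109 and 72.7 CPM in the low Dbp livers and 117, 149.8, 162, 169 and 138 CPM in the high ones. Hlf was at 85.8, 72.5 and 74.9 CPM against 87.2, 93.5, 101, 111 and 114 CPM, and the groups overlapped when CPM of the column total were used. The repressor Nfil3 lay the other way, at 48.0, 74.0 and 73.8 CPM in the low and 44.4, 33.2, 45.5, 33.4 and 44.6 CPM in the high livers. Dbp itself averaged 23.4 ± 11.1 CPM (SD, n = 3) in the low and 73.7 ± 12.5 CPM (SD, n = 5) in the high livers. These levels belong to the grouping and carry no test.

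Of the activators, Arntl was at 35.8, 39.9 and 36.2 CPM in the low and 24.7, 24.5, 27.8, 16.8 and 24.7 CPM in the high Dbp livers, and Npas2 at 14.9, 9.85 and 16.2 CPM and 8.01, 6.19, 6.60, 5.24 and 7.87 CPM. Every low liver was above every high liver for both genes, and the mean of Npas2 was 13.7 ± 3.38 CPM (SD, n = 3) against 6.78 ± 1.17 CPM (SD, n = 5). Clock mRNA overlapped, at 71.7, 118 and 94.4 CPM and 106, 98.0, 80.7, 104 and 96.0 CPM. Among the repressors, Per3 was at 9.84, 9.48 and 4.68 CPM in the low and 16.0, 18.1, 21.8, 21.1 and 19.8 CPM in the high livers, and Per2 at 13.9, 14.4 and 16.9 CPM and 17.7, 24.5, 24.8, 25.7 and 30.1 CPM, both without overlap. Ciart, a repressor of the BMAL1 dimer, was low in all 8 livers, at 1.72, 1.29 and 1.43 CPM against 2.25, 4.36, 5.26, 7.44 and 3.22 CPM, again without overlap. Bhlhe41, another E-box repressor, overlapped only through high Dbp replicate 1, at 4.84, 4.05 and 2.87 CPM against 4.21, 11.3, 9.87, 11.4 and 6.26 CPM.

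Not all clock genes stood apart between the low and high Dbp livers. Nr1d1 was at 166, 112 and 61.6 CPM in the low livers and 155, 106, 181, 168 and 165 CPM in the high livers, and low Dbp replicates 2 and 3 lay inside the range of the high livers. Per1 was at 45.0, 74.7 and 46.5 CPM against 31.2, 61.4, 58.1, 74.8 and 70.0 CPM, Cry2 at 52.0, 33.4 and 32.1 CPM against 51.4, 38.4, 49.6, 50.7 and 46.3 CPM, and both overlapped. Cry1 was between 16.1 and 17.4 CPM in the low livers and between 9.65 and 16.1 CPM in the high ones, where replicate 1 alone reached the low livers' range. Rora was at 112, 196 and 112 CPM in the low livers, with replicate 3 above and replicates 2 and 4 below the high livers at 133, 138, 128, 132 and 132 CPM. Nr1d2 was at 89.6, 133 and 83.6 CPM against 107, 131, 118, 138 and 116 CPM and Bhlhe40 at 190.2, 222 and 206 CPM against 169, 165, 171, 209 and 194 CPM, both overlapping. Of the 20 clock genes listed, 19 were analysed here, of which 3 had all low Dbp livers above all high ones (Nfil3, Arntl and Npas2) and 6 had them below (Dbp, Tef, Hlf, Per2, Per3 and Ciart). Outside the clock list, 194 of 13616 genes tested (1.42%) had the 3 low livers above the 5 high and 294 (2.16%) had them below, 3.58% in both directions. With CPM of the column total the counts were 96 and 422, a share of higher genes of 18.5% in place of 39.8%. Over all genes the median log2 difference came to -0.0062 with TMM and -0.0718 with library size alone.

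**Figure D1:**
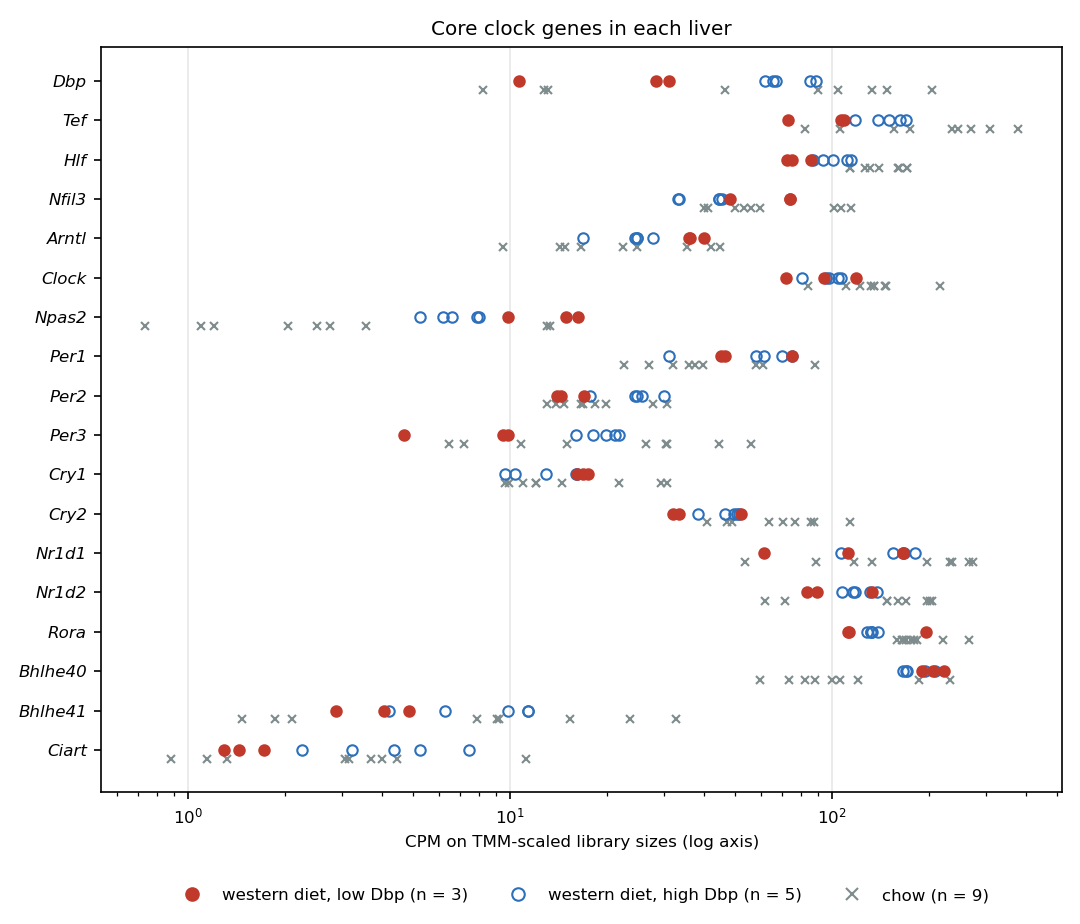
Core clock genes in each liver, as CPM on TMM-scaled library sizes on a log axis; filled circles are the 3 western diet livers with low Dbp, open circles the 5 with high Dbp and crosses the 9 chow livers. Low and high Dbp livers stand apart for Dbp, Tef, Hlf, Nfil3, Arntl, Npas2, Per2, Per3 and Ciart and overlap for the other genes shown.

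Outside the clock list, the level of no gene passed the test between low and high Dbp livers. edgeR's quasi-likelihood test with Benjamini-Hochberg adjustment called 0 of 13616 genes (0% called), and the smallest adjusted p was 0.838. At an unadjusted p under 0.05 there were 646 genes (4.74%), 284 higher in the low Dbp livers (2.09%) and 362 lower (2.66%). limma-voom called 0 genes, and DESeq2 called 4: Loxl4 and Hcar2 higher, Ccdc141 and Thrsp lower in the low Dbp livers. Leaving out each of the 8 livers in turn gave 0 calls by edgeR every time. On simulated counts with the same 3 and 5 livers, the test recovered 76% of genes changed by 1 on the log2 scale and 24% of those changed 1.5-fold. Each simulated gene varied on its own, without differences shared by many genes of 1 liver, so these shares need not hold for the real livers. Smaller differences were mostly not detectable even in the simulation. The 0 calls do not show that genes changed by 1 on the log2 scale were absent.

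The gene of lowest p was Ccdc141, which encodes a coiled-coil protein and lies on chromosome 2 from 77009902 to 77173769. It was at 19.1, 15.6 and 20.7 CPM in the low Dbp livers and 31.7, 29.1, 33.1, 30.5 and 30.8 CPM in the high ones, with no overlap. The log2 difference was -0.74 ± 0.12 (SE), with an adjusted p of 0.838 by edgeR and 0.00181 by DESeq2. Thrsp (chromosome 7, 97412933 to 97417550), the Spot 14 regulator of lipogenesis, was at 70.4, 32.9 and 44.0 CPM against 76.8, 103, 106, 143 and 117 CPM. Its log2 difference was -1.15 ± 0.26, and the 9 chow livers lay from 21.8 to 42.4 CPM. All low Dbp livers lay below every high Dbp liver for Thrsp. Low Dbp replicate 3 was inside the chow range, replicate 4 only just above it and replicate 2 further above it.

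Loxl4, a lysyl oxidase family enzyme that crosslinks collagen (chromosome 19, 42592279 to 42612806), was at 8.85, 7.73 and 13.4 CPM in the low and 5.06, 4.24, 4.42, 3.04 and 4.29 CPM in the high Dbp livers. Its log2 difference of 1.28 ± 0.23 had an adjusted p of 0.923 by edgeR and 0.013 by DESeq2. Hcar2, the receptor for beta-hydroxybutyrate and niacin (chromosome 5, 123863570 to 123865516), was at 3.28, 13.6 and 7.65 CPM against 1.97, 1.49, 3.21, 1.99 and 1.07 CPM. The log2 difference of Hcar2 was 2.08 ± 0.45, replicate 3 was the highest low liver and replicate 2 was only just above high Dbp replicate 6. Ankrd37, an ankyrin repeat gene known as a hypoxia target (chromosome 8, 45996908 to 46000414), was at 3.52, 4.79 and 6.59 CPM against 2.53, 1.89, 1.48, 1.62 and 2.27 CPM, a log2 difference of 1.36 ± 0.28. Insc, a spindle orientation adaptor (chromosome 7, 114743688 to 114850380), was at 21.8, 39.8 and 34.1 CPM against 16.99, 16.96, 20.8, 16.1 and 18.9 CPM. Mfsd4b3, a member of the major facilitator family, was at 26.2, 26.4 and 28.8 CPM against 18.7, 18.4, 17.8, 21.3 and 18.6 CPM. The groups did not overlap for any of these 5 genes, and none passed the adjustment by edgeR. The genes were picked by their low p in these same livers, a choice that favours groups without overlap.

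The remaining genes of lowest p on the lower side were Ptgfr, Cyp2d37-ps and A730008H23Rik. Ptgfr, the prostaglandin F receptor (chromosome 3, 151798610 to 151837528), was at 0.328, 0.368 and 0.574 CPM in the low and 0.843, 2.01, 1.67, 1.89 and 2.15 CPM in the high Dbp livers. The values of the low Dbp livers and of high Dbp replicate 1 were near the level of 3 counts. Ptgfr passed the filter for low counts only through high Dbp livers, so its place on the lower side depends partly on that filter. Cyp2d37-ps, a pseudogene of the Cyp2d cytochromes (chromosome 15, 82688750 to 82690058), was at 24.1, 15.3 and 26.4 CPM against 35.0, 32.4, 36.5, 42.9 and 43.5 CPM, and near-identical Cyp2d genes could share its reads. A730008H23Rik was at 83.3, 61.8 and 82.7 CPM against 107, 98.6, 111, 119.6 and 103 CPM. In all 3 genes, picked by p in the same way, the low Dbp livers lay below every high Dbp liver, and the adjusted p was 0.939 by edgeR.

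**Figure D2:**
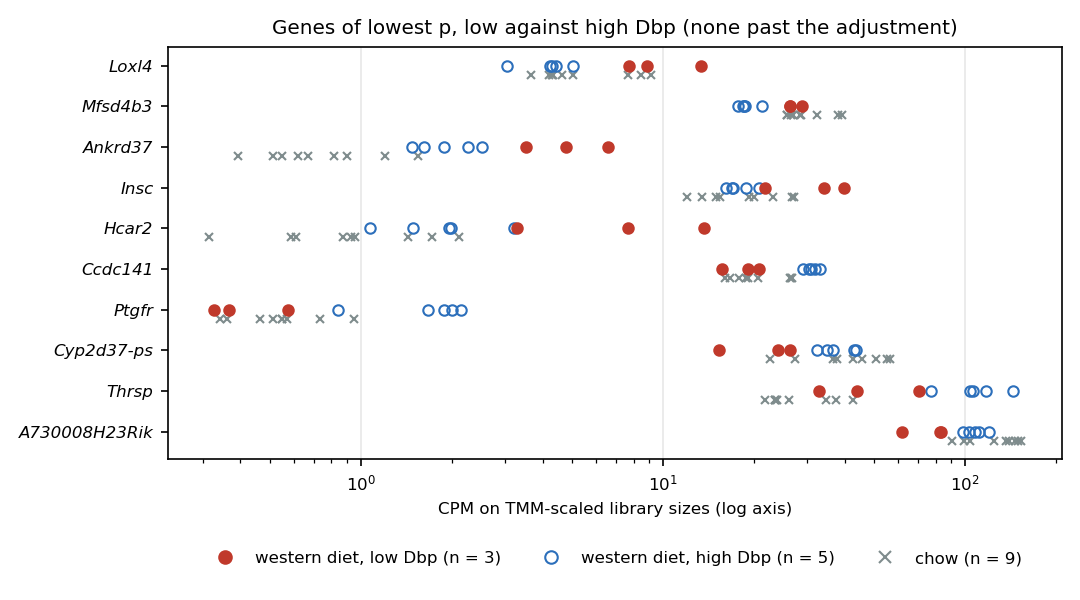
The 5 genes of lowest p in each direction outside the clock list, as CPM on TMM-scaled library sizes on a log axis; filled circles are the 3 low Dbp and open circles the 5 high Dbp western diet livers, crosses the 9 chow livers. The groups do not overlap in any of the 10 genes, which follows largely from their choice by p in these same livers. The share without overlap among all genes tested outside the clock list was 3.58%. No gene passed the adjustment by edgeR, the smallest adjusted p being 0.838 for Ccdc141.

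Gene lists were then described by the number of members at an unadjusted p under 0.05, beside 2.09% higher and 2.66% lower among all genes, and by the median log2 difference of low minus high Dbp, beside -0.0062. Among all 13616 genes tested, 6625 were above 0 and 6991 below 0. Members of a list can vary together over the same livers, so a count of signs mostly on 1 side can come from single livers. No member of any list passed the adjustment. The counts are small and moved when 1 liver was left out, as given with each list. The shares among all genes are those with all 8 livers. They were not counted with a liver left out, so a moved count was not compared with all genes of the same fit. Of 17 clock output genes of liver, 0 were higher and 3 lower at that p, with a median of -0.11. Usp2, a deubiquitinase with a strong daily rhythm, was at 8.44, 8.47 and 7.46 CPM in the low and 9.13, 18.6, 16.0, 27.4 and 21.1 CPM in the high Dbp livers, a log2 difference of -1.19 ± 0.29. Wee1, the kinase that holds back mitotic entry, was at 10.1, 4.33 and 7.46 CPM against 12.9, 16.8, 13.3, 15.0 and 14.1 CPM, a log2 difference of -0.96 ± 0.23. Neither gene overlapped between the groups. Tsku, a secreted liver protein, was at 180.0, 121 and 127 CPM against 226, 175, 210.0, 242 and 249 CPM and overlapped by replicates 2 and 5. The other outputs included Por, the cytochrome P450 reductase, at 366, 426 and 349 CPM against 361, 395, 315, 375 and 409.5 CPM, and Alas1, which starts haem synthesis, at 317, 507 and 335 CPM against 253, 274, 225, 426 and 371 CPM. Of the 20 kinases, ligases and corepressors that modify clock proteins, 0 were higher and 0 lower at that p, and at most 1 in each direction with a liver left out. The output genes had 3 or 4 lower with a liver left out, and 1 higher without replicate 4.

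The list of gluconeogenesis, glycogen and the insulin response had 5 of 20 members higher and 3 lower in the low Dbp livers at an unadjusted p under 0.05, with a median of 0.16. Pck1, the enzyme that commits carbon to gluconeogenesis, was at 1310.5, 2049 and 1272 CPM in the low and 1119, 883, 1048, 1235 and 1174 CPM in the high livers. The groups stood apart for Pck1 by this scale and overlapped with CPM of the column total, and the log2 difference was 0.51 ± 0.20 (unadjusted p 0.024, edgeR). Igfbp1, an IGF-binding protein that insulin represses, was at 161, 330.0 and 297 CPM against 159, 122, 114, 120.3 and 169 CPM, with only high Dbp replicate 8 above low Dbp replicate 2. The other members higher at that p were Fbp1 at 0.39 ± 0.17, Tat at 0.73 ± 0.31 and Sds at 0.97 ± 0.34 on the log2 scale, an enzyme of gluconeogenesis and 2 of amino acid breakdown. Slc2a2, the GLUT2 transporter, was at 331, 196 and 216 CPM in the low and 347, 335, 356, 402 and 375 CPM in the high livers, and Slc37a4, which carries glucose 6-phosphate into the endoplasmic reticulum, differed by -0.35 ± 0.15. Replicate 3 stood highest for Pck1, Igfbp1, Tat and Sds and lowest for Slc2a2. Without replicate 3 the list had 1 member higher and 4 lower, and its median was -0.0932. Without replicate 6 it had 2 higher and 2 lower, and without replicate 5 or 7 it had 3 higher and 3 lower.

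Of 18 lipogenesis genes, 2 were higher and 2 lower at an unadjusted p under 0.05, and the median was 0.0396. Without replicate 3, 0 were higher and 1 was lower, and without replicate 2, 1 was higher and 3 were lower. Acly, which makes cytosolic acetyl-CoA, was at 182, 309 and 177 CPM in the low and 126, 142, 156, 175 and 184 CPM in the high Dbp livers, replicate 3 being the highest. Pnpla3, a lipid droplet hydrolase, differed by 0.59 ± 0.21 on the log2 scale. Gpam, which starts triglyceride synthesis, was at 285, 218 and 283 CPM against 305, 306, 344, 426 and 445 CPM, without overlap. The fourth was Thrsp, given above. Srebf1, Fasn and Scd1 overlapped, with log2 differences of 0.091 ± 0.14, -0.20 ± 0.29 and 0.28 ± 0.23.

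Of 22 cholesterol synthesis and uptake genes, 1 was higher and 4 lower in the low Dbp livers at that p, with a median of -0.16. Fdft1, the squalene synthase, was at 61.1, 54.1 and 56.3 CPM in the low and 75.4, 73.9, 69.5, 66.4 and 69.9 CPM in the high livers. Msmo1, a sterol demethylase, was at 27.6, 29.5 and 28.5 CPM against 36.7, 31.8, 40.8, 42.8 and 33.7 CPM. Neither overlapped. Without replicate 2, and without replicate 7, 2 members were lower at that p, and the number higher was 0 without any one of replicates 1, 3, 4, 6, 7 and 8. Insig1, which retains the SREBP complex, differed by -0.28 ± 0.11 and Stard4, a sterol carrier, by -0.38 ± 0.14 on the log2 scale. Of 15 bile acid genes 1 had that p with all livers, and 3 were lower without replicate 3 and again without replicate 5, while 1 was also higher without replicate 1 or 2. The 1 gene was Nr0b2, the SHP corepressor of bile acid synthesis, at 32.1, 39.8 and 40.4 CPM in the low and 52.9, 72.3, 113, 73.6 and 53.0 CPM in the high livers, without overlap. Cyp7a1, the rate-limiting enzyme of bile acid synthesis, overlapped at 196, 309.7 and 123 CPM against 212, 318, 249.5, 277 and 386 CPM. Of 20 genes of fatty acid oxidation and PPARA, the lipid-sensing nuclear receptor, 0 were higher and 0 lower at that p. With a liver left out, 2 of them were lower without replicate 1 and without replicate 5, 1 was lower without replicate 4, and 1 was higher without replicate 1, 3 or 4.

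Drug metabolism genes had 0 of 22 members higher and 3 lower in the low Dbp livers, with a median of -0.15. Cyp2c54, a cytochrome P450, was at 103, 95.7 and 81.0 CPM in the low and 182, 189, 158, 111 and 112 CPM in the high livers, without overlap. Nr1i3, the nuclear receptor CAR that induces drug-metabolising enzymes, was at 146, 87.3 and 106 CPM against 178, 153, 153, 146 and 152 CPM, and low Dbp replicate 2 and high Dbp replicate 7 had nearly the same level. Ces2a, a carboxylesterase, differed by -0.39 ± 0.16 on the log2 scale. Without replicate 3 the list had 1 member lower at that p, and without replicate 2 it had 5 lower and 1 higher. It also had 1 higher without replicate 1, 4 or 6. Among 16 growth hormone and male liver genes, 2 were higher and 1 lower: Cish at 0.92 ± 0.37 and Igf1 at 0.53 ± 0.21, both induced by growth hormone, and Bcl6, a repressor of growth hormone target genes, at 37.5, 20.2 and 63.9 CPM in the low and 31.9, 109.9, 138, 96.5 and 100.2 CPM in the high livers. For Bcl6, high Dbp replicate 1 lay inside the low range. Igf1 was at 450.0, 1019.7 and 769 CPM against 525, 499.9, 534, 478 and 565 CPM, with low Dbp replicate 2 below every high liver and replicates 3 and 4 above them, and its log2 difference was 0.23 without replicate 3 and 0.79 without replicate 2. The number of members higher was 4 without replicate 1, 1 without replicate 2, 3, 6 or 8 and 0 without replicate 4 or 7. The number lower was 0 without any one of replicates 2, 3, 5, 6, 7 and 8.

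Acute phase proteins, which hepatocytes secrete in inflammation, had 15 of 16 members above 0 and a median of 0.52, and 1 member had an unadjusted p under 0.05. That member, Itih4, was at 1391, 1872 and 2923 CPM in the low and 1733, 1197, 1592, 1136 and 1347 CPM in the high Dbp livers. Fibrinogen alpha (Fga) was at 1771, 1985 and 3301 CPM against 2326, 1348, 1827, 1368 and 1560.5 CPM. The summed level of the list was 9451 to 19298 CPM in the low and 7495 to 12977 CPM in the high livers, with low Dbp replicate 4 the highest. Without replicate 4 the median was -0.0746, and 0 members were higher and 2 lower. The number higher at that p was 7 without replicate 1, 4 without replicate 2 and again without replicate 3, and 0 without replicates 5, 7 or 8.

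The lymphocyte lists had the medians farthest below 0 after pancreas. In bulk liver, fewer cells of a type and less RNA per cell cannot be told apart. Of 12 T and natural killer cell markers tested, 0 were higher and 6 lower at an unadjusted p under 0.05, and the median was -1.03. Cd8a, the CD8 coreceptor of cytotoxic T cells, was at 1.31, 2.85 and 2.20 CPM in the low and 9.13, 20.3, 6.35, 4.92 and 6.56 CPM in the high livers, without overlap and with a log2 difference of -2.11 ± 0.56 (unadjusted p 0.00373, adjusted p 0.987, edgeR). Nkg7, a granule gene of cytotoxic cells, was at 1.48, 1.38 and 2.29 CPM against 3.23, 13.3, 3.72, 3.67 and 3.69 CPM, also without overlap. Cd3d, Cd3g, Lck and Ccl5 differed by -1.71 ± 0.70, -1.44 ± 0.57, -1.26 ± 0.56 and -1.01 ± 0.42 on the log2 scale.

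Replicate 5, the liver with pancreas transcripts, was the highest in each of these 6 markers. The summed level of the list was 24.8 to 43.3 CPM in the low and 45.5 to 156 CPM in the high livers, and at most 61.0 CPM in the high livers other than replicate 5. Without replicate 5, 4 of 11 markers were lower and the median was -0.65. Without replicate 2 or without replicate 3, 1 marker was lower, and without replicate 4, or with replicates 3 and 5 both left out, there were 3. The 9 B and plasma cell markers had a median of -1.04 with all livers and -0.0448 without replicate 5, and Pax5, a B cell factor, was the 1 member lower at that p, with 0 lower without any one of replicates 2, 3, 5, 6, 7 and 8. The part of the pancreas transcripts in these levels was not tested.

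The 17 interferon response genes had 16 members below 0, a median of -0.32 and 2 members lower at an unadjusted p under 0.05. Cxcl9, a chemokine that draws T cells, was at 22.3, 24.1 and 14.6 CPM in the low and 26.4, 44.4, 30.5, 30.5 and 24.0 CPM in the high Dbp livers and overlapped by replicates 3 and 8. Without replicate 4, or without replicate 8, 6 members were lower, and without replicate 3 there was 1. All 10 genes of MHC class II and dendritic cells were below 0, with a median of -0.23, and 2 were lower at that p. They were Xcr1, the chemokine receptor of cross-presenting dendritic cells, at 1.89, 1.47 and 1.34 CPM against 3.37, 3.73, 3.08, 3.77 and 3.04 CPM, and the peptide-loading gene H2-DMb1 at -0.50 ± 0.18 on the log2 scale. Neither overlapped. Without replicate 3, 1 of the 10 was lower.

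Kupffer cell markers had 11 of 11 members above 0 and a median of 0.31, with 1 at an unadjusted p under 0.05. That number was 6 without replicate 2, 3 without replicate 5 and 0 without replicate 4. The 1 member was Cd163, the haemoglobin scavenger receptor, at 2.87, 3.40 and 3.82 CPM in the low and 2.95, 2.01, 1.48, 1.73 and 0.834 CPM in the high Dbp livers, all below the chow livers at 31.9 to 58.4 CPM. Marco, another scavenger receptor, reached 26.5 CPM in low Dbp replicate 3 and 16.6 CPM in high Dbp replicate 5, and was at most 2.39 CPM in the other 6 western diet livers. Of 11 liver endothelium markers 2 were higher at that p, Clec4g at 0.45 ± 0.15 and Cdh5 at 0.41 ± 0.17, with a median of 0.26. In this list 7 members were above 0 and 4 below: Lyve1 at -0.515, Gpr182 at -0.029, Stab1 at -0.015 and Stab2 at -0.010. With single livers left out the number of endothelial markers higher was 1 to 3, and 1 was lower without replicate 1. The 19 cell cycle genes had 18 members below 0, a median of -0.29 and 2 lower at that p (Ccne2 and Mcm6). Without replicate 3, and without replicate 7, no cell cycle gene had that p, while 1 was lower without replicate 4, 3 without replicate 2 and 4 without replicate 6.

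The remaining lists had few members at an unadjusted p under 0.05. The scar matrix, stellate cell, lipid-associated macrophage, neutrophil, bile duct, pancreas, heat shock, cold-inducible and adipocyte and red cell lists each had 0 members there with all 8 livers. Col1a1, the main fibrillar collagen chain, was at 141, 31.3 and 67.3 CPM in the low and 68.5, 97.0, 79.6, 94.2 and 134 CPM in the high Dbp livers. Most of these zeros did not hold for every set of livers. Without replicate 5, the liver with pancreas transcripts, 6 pancreas markers were higher, with a median of 0.52 in place of -2.40, and 2 adipocyte and red cell genes were higher. Scar matrix genes had 4 lower without replicate 2, with a median of -0.50, and 2 higher without replicate 3, with a median of 0.12. Stellate cell genes had 2 lower without replicate 1, 1 lower without replicate 4 and 1 higher without replicate 2, 3, 5 or 7. Lipid-associated macrophage genes had 2 lower without replicate 4 and 1 without replicate 2, and bile duct genes had 2 lower without replicate 2 and 1 higher without replicate 3. Without replicate 1, 2 heat shock genes were higher, and without replicate 2, 1 neutrophil gene was higher.

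Small counts were also found in the last lists. The 13 glucocorticoid response genes had 2 higher, Errfi1 and Tat, of which Tat also belongs to the glucose list. The 18 immediate early genes had Ier3 higher and Jun lower, the 20 endoplasmic reticulum and amino acid stress genes had Herpud1 lower, and the 15 hepatocyte identity genes had Onecut1 higher. Herpud1 was at 309, 302 and 382 CPM in the low livers and 311, 511, 527, 487 and 495 CPM in the high livers, where replicate 1 was as low as the low livers. The glucocorticoid list had 4 higher without replicate 1, 3 without replicate 2, 1 without replicate 3 or 4 and 0 without any one of replicates 5 to 8, with 1 lower without replicate 3. Immediate early genes had 2 higher without replicate 3 or 4, 2 lower without replicate 2 and 0 lower without replicate 1, 3, 4 or 7. The endoplasmic reticulum list had 5 lower without replicate 4, with a median of -0.28 in place of -0.0358, and 0 lower without replicate 2 or 3, and it had 2 higher without replicate 1 and 1 without replicate 2. The hepatocyte list had 5 higher without replicate 1, 2 without replicate 8 and 0 without replicate 3, and 1 lower without replicate 4. The members named from the lists by their p were picked after their values were seen.

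**Figure D3:**
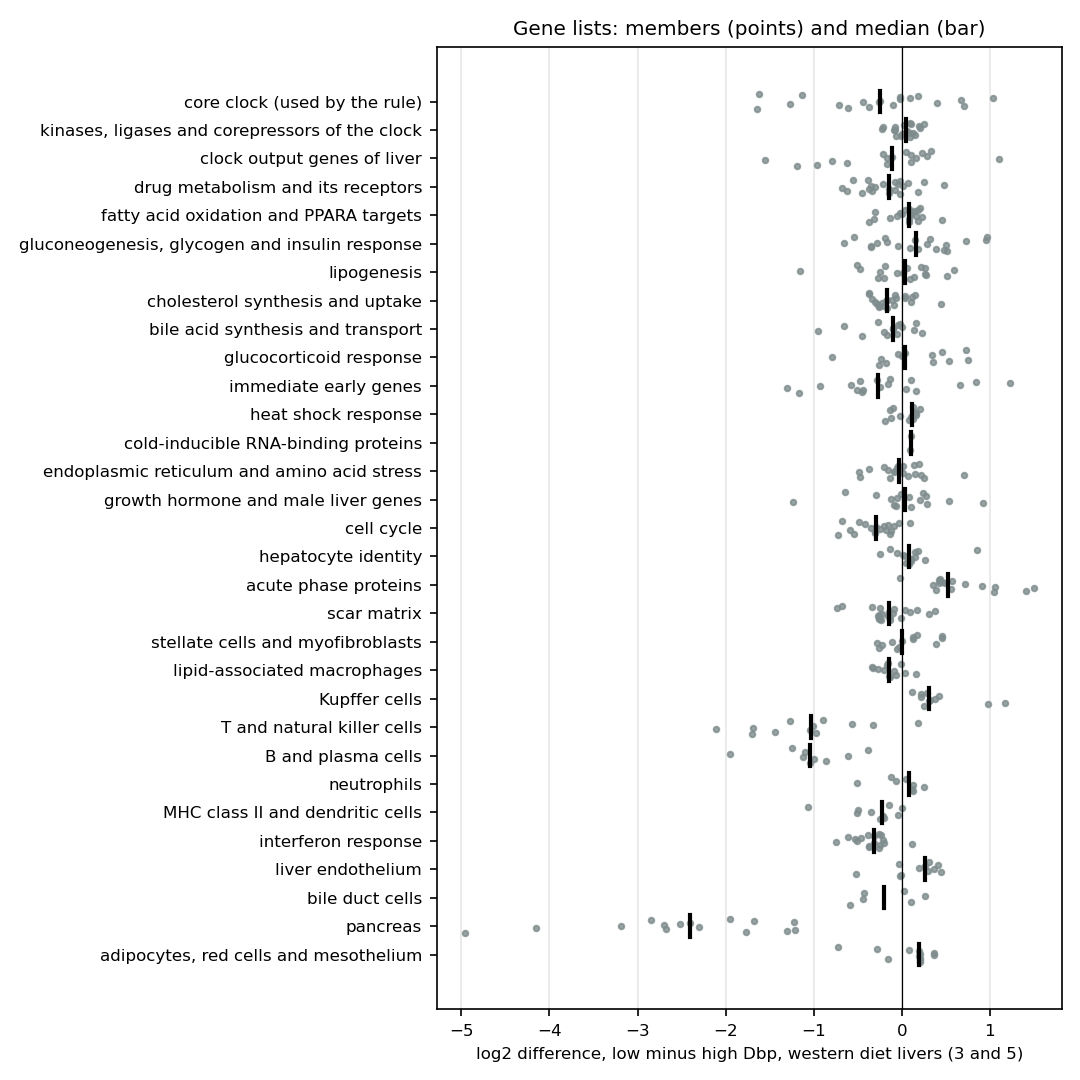
Log2 difference of low minus high Dbp western diet livers (3 and 5) for each tested member of the gene lists, with the median of each list as a bar. Medians lie near -1.03 and -1.04 for T and natural killer and for B and plasma cell markers, at 0.52 for acute phase proteins and at -2.40 for pancreas markers, where the median without replicate 5 was 0.52.

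The chow livers, which the division did not use, gave a second reading of the association with Dbp. Dbp was 7.97 to 193 CPM of the column total among the 9 chow livers, with a median of 85.6 CPM and 4 livers below 50 CPM. The slope of each gene on log2 Dbp was tested, with its sign turned so that positive is higher at low Dbp. Chow replicate 2 held both the lowest Dbp and the most pancreas transcripts, 19165 CPM of the column total, and 2 of 15 pancreas markers passed on the higher side. Of the 18 clock genes other than Dbp, 12 passed in chow, 4 higher and 8 lower at low Dbp (edgeR, Benjamini-Hochberg adjustment). Among genes outside the clock list 3.16% passed. The clock genes and Dbp are parts of the same clock, so these 12 calls describe the clock and are not separate evidence. Per 2-fold lower Dbp, Npas2 rose by 0.77 ± 0.12 (adjusted p 0.00639, edgeR), Arntl by 0.41 ± 0.04 and Nfil3 by 0.32 ± 0.03 on the log2 scale in chow. The slope of Per3 was -0.63 ± 0.06 and that of Bhlhe41 -0.93 ± 0.08. Cry1, Cry2, Nr1d1 and Nr1d2, which overlapped in the western diet livers, also passed in chow, with the same sign in both diets. Their chow slopes were 0.32 ± 0.06, -0.27 ± 0.03, -0.43 ± 0.05 and -0.29 ± 0.06. Per1, Clock and Rora did not pass in chow. Bhlhe40, an E-box repressor, fell at low Dbp in chow by a slope of -0.30 ± 0.07, whereas the western diet livers differed by 0.19 ± 0.11 and overlapped.

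Outside the clock list, 413 of 13071 genes (3.16%) passed in chow, 201 higher (1.54%) and 212 lower (1.62%) at low Dbp. Leaving out 1 chow liver moved the count from 122 (without replicate 2, which carried pancreas transcripts) to 633 (without replicate 3), with 170 without replicate 1, 220 without replicate 7 and 240 without replicate 9. Of these genes, 407 were tested in the western diet livers, where 67 (16.5%) had an unadjusted p under 0.05, beside 4.74% of all genes. Of the 67, 52 had the same sign in both diets and 15 the opposite sign. Of all 407, 250 (61.4%) had the same sign. The share with the same sign among all genes tested in both diets was not counted, and the agreement was not recounted without chow replicate 2. Genes with the same sign included Wee1, with a chow slope of -0.41 ± 0.10, Cyp2c54 at -0.18 ± 0.03, Cyp2d37-ps at -0.21 ± 0.05 and A730008H23Rik at -0.15 ± 0.03. Of the 22 cholesterol genes, 8 fell with lower Dbp in chow and 0 rose. Among them were Insig1 at -0.26 ± 0.03, Stard4 at -0.34 ± 0.05, Fdft1 at -0.17 ± 0.03 and Msmo1 at -0.34 ± 0.08, the 4 genes that were also at an unadjusted p under 0.05 on the lower side in the western diet.

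Several genes that passed in chow did not have that p in the western diet livers. Fgf21, a fasting hormone of liver, rose by 0.43 ± 0.05 per 2-fold lower Dbp in chow, and the western diet livers were at 17.8, 26.5 and 17.2 CPM (low Dbp) and 32.2, 16.1, 28.9, 14.0 and 17.6 CPM (high Dbp). Cdkn1a, an inhibitor of the cell cycle, rose by 1.03 ± 0.12 in chow and was at 85.3, 47.0 and 112 CPM against 46.6, 57.1, 65.0, 63.7 and 102 CPM in the western diet. Srebf1, the lipogenic regulator, fell at low Dbp in chow, with a slope of -0.36 ± 0.07, and differed by 0.091 ± 0.14 in the western diet. Genes of opposite sign included Igf1, with a chow slope of -0.23 ± 0.03 and a western diet difference of 0.53 ± 0.21, and Onecut1 at -0.50 ± 0.11 and 0.86 ± 0.29.

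The difference between the slopes of the diets was itself tested over all 17 livers. edgeR's quasi-likelihood test called 0 of 14154 genes (0% called), with a smallest adjusted p of 0.109, and 1042 genes (7.36%) had an unadjusted p under 0.05. limma-voom called 0 genes, and DESeq2 called 62, 42 with a positive and 20 with a negative slope difference, western diet minus chow. For Igf1 the slope difference, western diet minus chow, was 0.48 ± 0.10 (adjusted p 0.176, edgeR) and for Onecut1 0.90 ± 0.21 (adjusted p 0.244, edgeR). Leaving out 1 liver gave 0 to 8 calls, with 8 both without western diet replicate 2 and without its replicate 6.

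**Figure D4:**
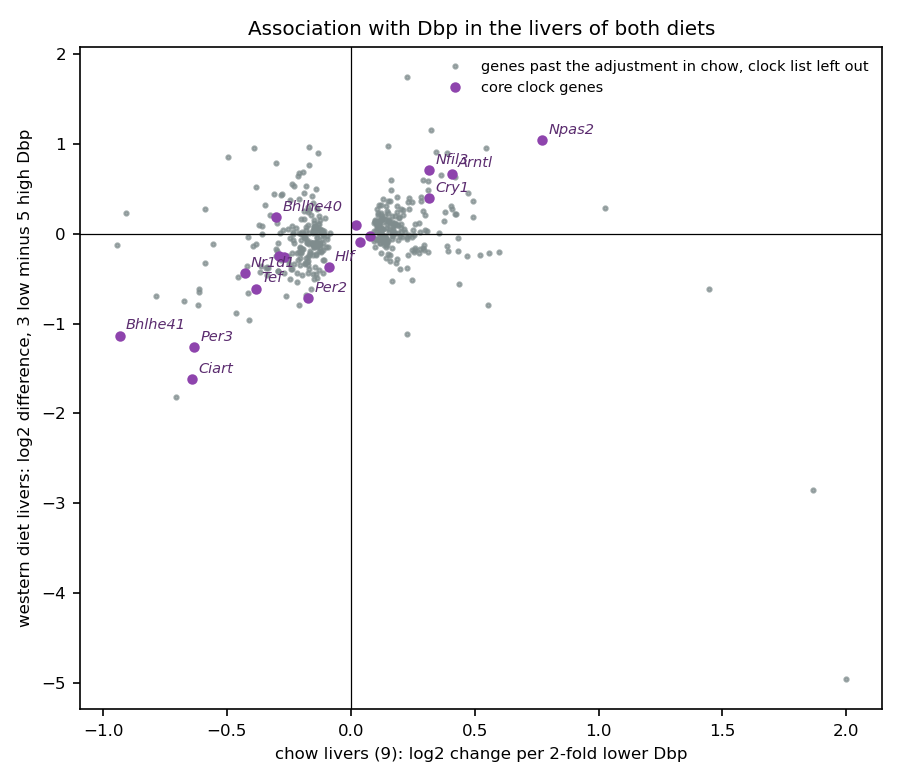
Association with Dbp in both diets: on the x axis the log2 change per 2-fold lower Dbp over 9 chow livers, on the y axis the log2 difference of 3 low minus 5 high Dbp western diet livers. Grey points are the genes outside the clock list that passed in chow and were tested in the western diet (407), 250 of them with the same sign in both; purple points are the core clock genes.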

How the data were processed

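Each liver has 1 deposited file of expected counts by gene symbol, unscaled and in steps of 0.5; per the submitters' processing notes the authors used STAR 2.4.1c, HOMER, FastQC, MultiQC and mm10. Their options, the strand, the annotation and how duplicates were treated were not given in the sources used here, so overlapping genes and near-identical copies can share reads. Of 24940 genes, 3 without a value were left out.

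Counts were rounded and tested with edgeR 4.0.16 (R 4.3.3): filterByExpr, TMM, robust quasi-likelihood fits, two-sided tests, Benjamini-Hochberg adjustment at 0.05 over all genes of a fit. The fits were low against high Dbp (8 livers), the Dbp slope in chow (9) and the difference of slopes (17). Each SE was derived as the absolute log2 difference divided by √F. DESeq2 1.42.0 and limma-voom (limma 3.58.1) were alternatives, beside other scalings, filters and left-out livers. The test was checked on simulated counts. Pairs of libraries of a diet differed beyond sampling noise, with a chi-square per degree of freedom of at least 3.77. Plots used Python 3.11.15 and matplotlib 3.10.9, and positions come from RefSeq, GRCm38.p6.

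The low and high groups, the gene lists and the tests were chosen with earlier results of these data known. Named genes were the clock list, the 5 genes of lowest p in each direction (since none passed), up to 3 members of each list past the threshold or else its 2 most abundant, and 24 fixed genes; another 35 list members at an unadjusted p under 0.05 were added after their values were seen. A few of the genes thus chosen are not reported here. Counts of genes without overlap were added after the data were seen. They and the gene levels were first computed on CPM of the column total and then changed to TMM-scaled CPM because the first counts were uneven; both splits are printed. P-values measure association with Dbp over the mice sampled, not the effect of a treatment.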

Additional observations from a re-analysis of the deposited data

Results flagged for a closer look

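Within the 5 high Dbp livers, and over the 8 western diet livers for the library total and the pancreas sum, the gap between an extreme value and its nearest neighbour was compared with the whole range (Dixon's criterion) in 143 groups, and 18 exceeded the 95% critical value; chance flags about 1 in 20 groups. Replicate 5 accounted for 10 of them. Its summed pancreas level was 6863 CPM of the column total, with the lipases Cel at 864 and Pnlip at 654 CPM on TMM-scaled sizes. It also stood apart for the T and natural killer cell genes Cd8a (20.3 CPM), Nkg7 (13.3 CPM), Cd3g (13.1 CPM) and Lck (21.4 CPM), for Marco (16.6 CPM) and Ier3 (5.56 CPM) on the high side, and for Errfi1 (925 CPM) on the low side. Replicate 1, the shallowest library, stood apart on the high side for Cyp2e1 (2708 CPM), Slco1b2 (1605 CPM), Hsp90ab1 (1089.7 CPM), Apoa1 (1599 CPM) and Nr1i3 (178 CPM) and on the low side for Herpud1 (311 CPM). Zfp36 was high in replicate 6 (417 CPM) and Mfsd4b3 in replicate 7 (21.3 CPM), the latter still below every low Dbp liver. These flags concern single western diet livers, and the diets were not compared in this screen.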

How the results depend on the processing

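No gene outside the clock list passed between low and high Dbp livers by edgeR under any scaling, filter, dispersion estimate and left-out liver tried, nor by limma-voom; DESeq2 called 4 genes. The number of genes with the 3 low livers above the 5 high was 96 in place of 194 on CPM of the column total, and the number below was 422 in place of 294. In chow, the 413 calls became 794 by DESeq2 and 83 at an adjusted p under 0.01, and 122 to 633 with single chow livers left out. The difference of slopes had 62 calls by DESeq2 and 0 to 8 with single livers left out. The causes of these moves were not tested, other than the stricter threshold. The number of clock genes that passed in chow, 12, was 8 to 12 under all alternatives run. No paired analysis was possible because no label links a mouse of one diet with one of the other, and the replicate numbers used here are not from the labels.

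No named gene outside the clock list was called by edgeR under the alternatives of the group comparison. All 141 named genes kept their sign with RLE size factors, DESeq2, a CPM filter, no filter, doubled counts, non-robust fits, a test against 1.5-fold and dispersion from 17 livers. Sign changes under the others, with the log2 value, were as follows, and their cause was not tested. With log2 Dbp as a slope in place of the groups, the sign changed for Clock (0.0039), Rora (-0.0055), Sc5d (-0.0034), Jund (-0.024), Cirbp (-0.0005), Lpl (0.0044), Spp1 (0.056), S100a9 (-0.011), Cd74 (0.028), Stab2 (0.0304), Stab1 (0.0099), Alas2 (-0.0058) and Trem2 (0.007). With library size alone it changed for Por (-0.019), Cyp2e1 (-0.0303), Sc5d (-0.026), Jund (-0.014) and Apoa1 (-0.0017). With limma-voom it changed for S100a9 (-0.37), Stab2 (0.0055) and Fgf21 (0.055). Without replicates 3 and 5 together it changed for Rora (-0.22), Por (-0.0297), Sc5d (-0.059), Jund (-0.044), Ccnd1 (0.12), Alb (-0.10), Lpl (0.0695), Spp1 (0.27), S100a9 (-0.92), Cd74 (0.13), Stab2 (0.15), Stab1 (0.20), Cel (0.52), Pnlip (0.40), Alas2 (-0.11), G6pc (-0.11), Fasn (0.018), Cpt1a (-0.028), Col1a1 (0.14) and Trem2 (0.26). Leaving out 1 western diet liver at a time changed the sign for the genes given here with the lowest and highest value: Per1 (-0.38 to 0.0397), Clock (-0.22 to 0.15), Rora (-0.24 to 0.23), Por (-0.052 to 0.11), Cyp2e1 (-0.071 to 0.24), Pcx (-0.068 to 0.26), Sc5d (-0.026 to 0.087), Slco1b2 (-0.096 to 0.075), Jund (-0.019 to 0.14), Cirbp (-0.026 to 0.24), Hspa5 (-0.015 to 0.23), Calr (-0.034 to 0.23), Ccnd1 (-0.59 to 0.16), Alb (-0.023 to 0.27), Apoa1 (-0.021 to 0.24), Spp1 (-0.34 to 0.25), Jchain (-2.21 to 0.16), S100a9 (-0.94 to 0.66), Cd74 (-0.17 to 0.073), Stab2 (-0.095 to 0.11), Stab1 (-0.16 to 0.17), Sox9 (-0.37 to 0.64), Cel (-5.28 to 0.47), Pnlip (-2.59 to 0.36), Alas2 (-0.081 to 0.18), G6pc (-0.0395 to 0.76), Fgf21 (-0.29 to 0.11), Fasn (-0.60 to 0.092), Cdkn1a (-0.0093 to 0.56), Tsc22d3 (-0.48 to 0.017), Col1a1 (-0.94 to 0.14), Trem2 (-0.32 to 0.10) and Marco (-1.44 to 3.09). Depth limits the genes of few counts, such as Ptgfr, near 3 counts in the low Dbp livers, and Ciart, which lay above that level.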
